A study of Caenorhabditis elegans with 3 samples.

Results

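The rgs genes of *Caenorhabditis elegans* encode regulators of G protein signaling. Here they were taken as the array features whose gene symbol in the platform annotation was rgs- followed by a whole number, which gave 9 genes on 10 features, out of 19292 genes tested. These were *rgs-1*, *rgs-2*, *rgs-3*, *rgs-5*, *rgs-6*, *rgs-7*, *rgs-9*, *rgs-10* and *rgs-11*, each measured on all 3 arrays, and no filter on low values was applied. The family was chosen with its ratios on these same arrays already known. Its values are therefore given as a description, with no p-value for the family or a member. The number of members called in the fit across all genes is given only beside the share of all genes called, and in the limits at the end.

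Heterotrimeric G proteins relay signals from receptors at the cell surface. The receptor loads the alpha subunit with GTP, and the alpha subunit and the beta-gamma dimer then act on effector enzymes and channels until the alpha subunit hydrolyses its GTP. RGS proteins speed that hydrolysis and so shorten the signal. In *C. elegans* they are best known from neurons, where opposing alpha subunits, GOA-1 and EGL-30, set transmitter release, locomotion and egg laying, and from the early embryo, where G proteins position the mitotic spindle.

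Each of the 3 arrays compared 1 preparation of late L4 hermaphrodites, with the code TP05 and numbered prep 1, 2 or 3, with a mixed wild-type RNA. Late L4 is the end of the last larval stage, before the molt to the adult. The labels give no strain, treatment or growth condition for the late L4 animals, do not say which stages or sexes the mixed reference held, and do not say whether the preps were separate cultures, so the spread between them may be technical. The deposited values were log2 ratios, taken as late L4 over reference. No source used here states this direction; it is likely because the descriptions name late L4 before the reference, and late L4 RNA was in channel 2 of every array. Were the ratio the other way round, every sign, rank and direction given here would turn with it. With 0 arrays in the opposite dye orientation, dye bias at single genes and a difference between the RNAs cannot be told apart. Only ratios were analysed here, so neither RNA's level, nor signal over background, is known.

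A gene was called lower or higher at an adjusted p under 0.05 (limma, Benjamini-Hochberg over all genes). By this rule 10.8% of all genes were lower and 12.0% were higher in late L4, and the median mean log2 ratio of all genes was -0.03. All genes here include features without a gene name, and 15112 of the 19292 were named. Of 10 sperm marker genes, 9 were higher and 0 lower (limma; 0 at an unadjusted p under 0.05), with a median of 2.07, and *smz-2*, a gene of sperm formation, was 13.7-fold higher. Of 9 body wall muscle markers, 4 were higher and 0 lower (0 at an unadjusted p under 0.05), with a median of 0.64. Of 10 oocyte and early embryo markers, 2 were lower and 0 higher (0 at an unadjusted p under 0.05), with a median of -0.26. Pairs of arrays had Pearson correlations of 0.69 to 0.73 across genes, which are not independent replicates.

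Most rgs genes had ratios below 0. The mean log2 ratio was negative for 8 of the 9 genes, and 7 were below 0 on all 3 arrays, a pattern that 27.9% of all genes had. Of the 27 single values, 24 were negative and 3 positive. In the fit across all genes, 4 members were called lower, and the other 5 were not called in either direction. The count of lower members was 2 without prep 1, 3 without prep 2 and 1 without prep 3. Over all genes, the count lower also fell, from 2092 to 1337, 1776 and 1368 in the same order. That count of 4 stands beside the 10.8% of all genes called lower, and nothing is read from it, because the family was chosen on this contrast. The median of the 9 means was -0.61.

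*rgs-9* (ZC53.7, chromosome X) had the lowest ratios of the family. Its log2 ratios were -1.93, -1.34 and -1.89 on preps 1, 2 and 3, so late L4 was 3.80-fold, 2.53-fold and 3.72-fold below the reference. The mean was -1.72 ± 0.33 (SD, n = 3), or 3.30-fold lower, and 1.69% of all genes lay at or below it. It ranked lowest of the 9 members on every array.

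*rgs-11* (F45B8.1) and *rgs-10* (F45B8.2) are direct neighbours on the X, with no other protein-coding gene between them in the RefSeq gene table. *rgs-11* had log2 ratios of -1.14, -0.61 and -1.42, a mean of -1.06 ± 0.41 (SD, n = 3) or 2.08-fold lower. *rgs-10* had -0.73, -0.53 and -1.05, a mean of -0.77 ± 0.26 or 1.71-fold lower. Both were nearest to 0 on prep 2 and farthest from it on prep 3. *rgs-11* was the lower of the pair on each array, by 0.40, 0.08 and 0.37 log2 units, a mean difference of -0.28 ± 0.18 (*rgs-11* minus *rgs-10*). How far the features of these neighbours could cross-hybridise is not known, since the probe type is not given in the sources used here.

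*rgs-7* (F56B6.2, chromosome X), whose protein acts on G alpha signaling during asymmetric spindle movements in the early embryo, had log2 ratios of -0.62, -0.77 and -0.91. Its mean of -0.77 ± 0.14 (SD, n = 3), or 1.70-fold lower, came with the smallest spread of any member. Unlike its neighbours in the order, it was nearest to 0 on prep 1.

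*rgs-3* (C29H12.3, chromosome II), which dampens signaling in sensory neurons, had log2 ratios of -0.82, -0.49 and -0.53, a mean of -0.61 ± 0.18 (SD, n = 3). *rgs-1* (C05B5.7, chromosome III) and *rgs-2* (F16H9.1, chromosome X) both encode inhibitors of GOA-1 signaling that act together in the egg-laying response to food. *rgs-1* had -0.82, 0.05 and -0.59, a mean of -0.45 ± 0.45 and the widest spread of the family. Its mean was -0.27 without prep 1 and -0.71 without prep 2. Preps 1 and 3 lay below the reference, and prep 2 at about its level.

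*rgs-2* differed from the other members in sign. Its log2 ratios were -0.13, 0.06 and 0.32, with a mean of 0.08 ± 0.23 (SD, n = 3), and it was the only member with a positive mean. That mean was -0.04 without prep 3. The 3 values lay on both sides of 0, as did those of *rgs-1*. The ratios of single members are described here without a test of their difference from 0, and 3 arrays leave small ratios such as these imprecise.

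*rgs-6* (C41G11.3, chromosome X) was the only member with more than 1 feature. The average over its features gave log2 ratios of -0.63, -0.30 and -0.59 and a mean of -0.51 ± 0.18 (SD, n = 3). The separate features had means of -0.52 and -0.50, and differed by at most 0.21 log2 units on any array. *rgs-5* (B0336.4, chromosome III) had -0.01, -0.34 and -0.36, with a mean of -0.24 ± 0.20, and was at the reference level on prep 1.

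**Figure D1:**
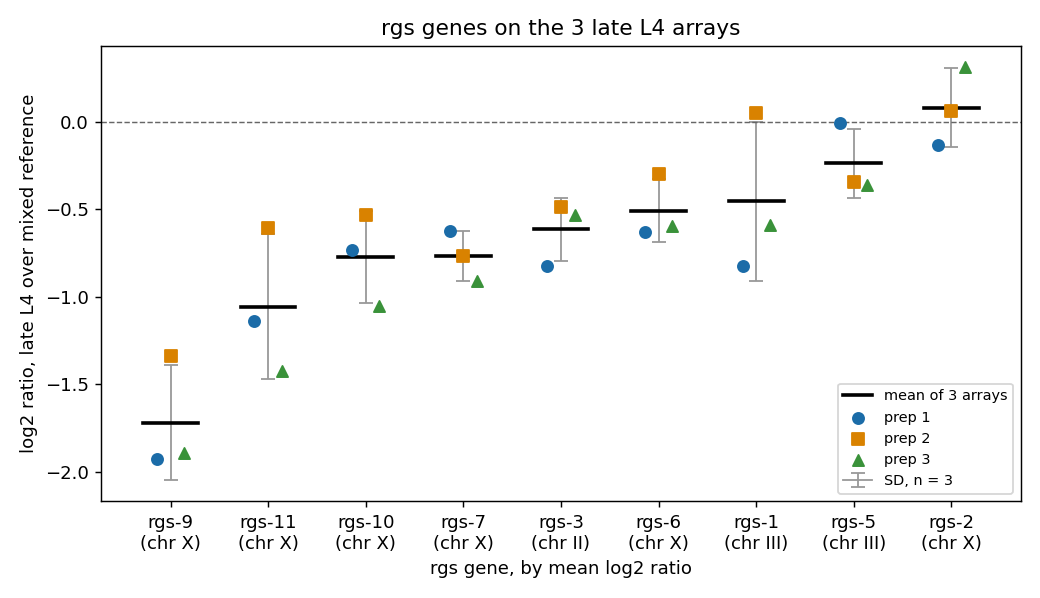
Log2 ratio of late L4 over the mixed reference (y axis) for the 9 rgs genes, ordered by mean, with 1 marker per prep, the mean as a bar and the SD over 3 arrays as an error bar. *rgs-9* lies lowest on every array, at -1.34 to -1.93, and *rgs-2* is the only gene with a mean above 0.

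From lowest to highest mean, the order was *rgs-9*, *rgs-11*, *rgs-10*, *rgs-7*, *rgs-3*, *rgs-6*, *rgs-1*, *rgs-5* and *rgs-2*. In each of the 8 pairs of neighbours in that order the ranges over the 3 arrays overlapped. In 2 of these pairs, *rgs-9* with *rgs-11* and *rgs-11* with *rgs-10*, the first gene was the lower one on all 3 arrays; each of the other 6 pairs changed order on 1 array. The widest step was at the low end, 0.66 log2 units between *rgs-9* and *rgs-11*. Within single arrays *rgs-9* was below *rgs-11* by 0.79, 0.73 and 0.47 log2 units, a mean difference of -0.66 ± 0.17 (*rgs-9* minus *rgs-11*). The means of *rgs-10* and *rgs-7* were 0.005 log2 units apart.

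The preps ranked differently for the family than for all features. The members' median log2 ratios were -0.73, -0.49 and -0.59 on preps 1, 2 and 3, whereas the median of all features was 0.01, -0.10 and -0.06. Prep 2 thus had the lowest median of all features, yet gave 6 of the 9 members their highest value. Prep 1 gave the highest value for *rgs-5* and *rgs-7*, and prep 3 for *rgs-2*. This order is not particular to the family. The neuronal marker genes described below ranked the preps alike, with medians of -0.80, -0.45 and -0.59. The other G protein pathway genes were also lowest on prep 1, with medians of -0.46, -0.40 and -0.32. The SD over the arrays ran from 0.14 to 0.45 log2 units among members, with a median of 0.23, and 7 of 9 lay below the median SD of all genes, 0.36.

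The members are spread unevenly over the genome: 6 lie on the X and 3 on autosomes (*rgs-3* on chromosome II, *rgs-1* and *rgs-5* on chromosome III). The median of the member means was -0.77 on the X and -0.45 on the autosomes. X-linked genes as a whole were called lower in 14.4% of cases and autosomal genes in 11.6%, with median log2 ratios of -0.14 and -0.02. Among X-linked genes alone, 1.89% lay at or below *rgs-9*, 6.81% at or below *rgs-11*, 12.7% at or below *rgs-10*, 12.9% at or below *rgs-7*, 23.5% at or below *rgs-6* and 69.4% at or below *rgs-2*. The autosomal members had 14.7% (*rgs-3*), 20.8% (*rgs-1*) and 33.6% (*rgs-5*) of the autosomal genes at or below them.

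**Figure D2:**
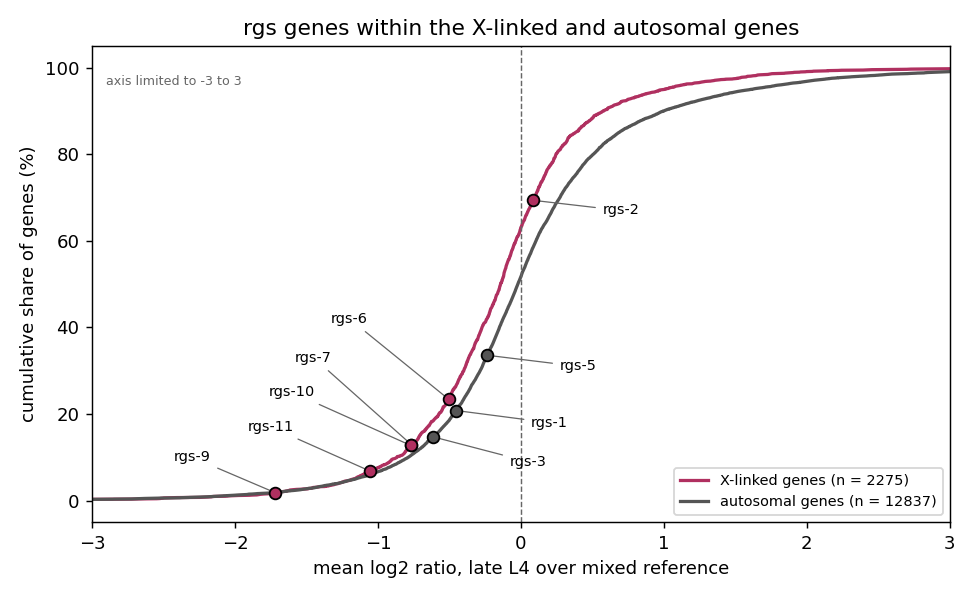
Cumulative share of genes (y axis, %) by mean log2 ratio of late L4 over reference (x axis, limited to a central range) for 2275 X-linked and 12837 autosomal genes, with each rgs gene marked on the curve of its own class. *rgs-9* sits at 1.89% of the X-linked genes, and *rgs-2*, at 69.4%, is the only member past the middle of its curve.

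Within 2 protein-coding genes on either side of a member, 25 genes other than rgs genes were measured. They had a median log2 ratio of 0.02, with 2 called lower and 0 higher (limma; 6 lower and 1 higher at an unadjusted p under 0.05). Directly beside *rgs-9*, ZC53.1 had a mean of -0.10 ± 0.25 (SD, n = 3) and *dot-1.5* one of -0.01 ± 0.49. B0294.1, second from *rgs-9*, had one of -0.73 ± 0.68 (limma, adjusted p = 0.070). Beside the *rgs-10* and *rgs-11* pair, *idpp-3* had a mean of 0.36 ± 0.24, and *pag-3*, second from *rgs-10*, one of -0.48 ± 0.42. F45B8.5, on the far side of *rgs-11*, was not measured. The lower neighbours were C41G11.1 beside *rgs-6*, at -2.52 ± 0.55 (adjusted p = 5.48e-06), and the insulin-like peptide gene *ins-22*, which lies second from *rgs-1*, at -0.87 ± 0.15 (adjusted p = 0.015).

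The RefSeq gene table lists 12 genes named rgs, and 3 of these were not members. *rgs-8.1* (F52D2.2, chromosome X) was measured but its symbol has a decimal, so the rule left it out. Its log2 ratios were -0.65, -0.92 and -1.38, with a mean of -0.98 ± 0.37 (SD, n = 3), or 1.98-fold lower, between *rgs-11* and *rgs-10* in the order. *rgs-4* and *rgs-8.2* were not analysed here.

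Other proteins with an RGS domain carry other names. Of 7 such genes measured, limma called 0 in either direction (2 lower and 1 higher at an unadjusted p under 0.05), with a median log2 ratio of -0.17. *eat-16*, which encodes the RGS protein acting on EGL-30, had log2 ratios of -0.82, -0.79 and -0.45 and a mean of -0.69 ± 0.20 (SD, n = 3). It was at the edge of the threshold (limma, adjusted p = 0.0502, and 0.0473 with robust eBayes). *egl-10*, which encodes the RGS protein acting on GOA-1, had -0.48, 1.71 and -0.73, so that prep 2 alone made its mean positive (0.17 ± 1.34; -0.60 without prep 2).

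The alpha subunits are the proteins on which regulators of G protein signaling act. Of 21 measured, 5 were called lower and 1 higher, while 15 did not pass, with a median log2 ratio of -0.50. *odr-3*, an alpha subunit of olfactory neurons, had log2 ratios of -1.74, -1.52 and -1.13 and was 2.76-fold lower (mean -1.46 ± 0.31, SD, n = 3; limma, adjusted p = 0.000385). *gpa-7* was 2.22-fold lower, at -1.15, -1.14 and -1.16 on the 3 arrays (limma, adjusted p = 0.00202). The remaining lower genes, picked out once the values had been seen, were *gpa-2* (-1.15 ± 0.07), *gpa-4* (-1.10 ± 0.44) and *gpa-3* (-0.90 ± 0.64). *gpa-3* lost its call without prep 1 (limma, adjusted p = 0.21), without prep 2 (0.069) and under median centring (0.052).

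The higher alpha subunit gene, chosen likewise, was *gpa-12*, of the G12 class (0.82 ± 0.45), whose call was lost without prep 2 (limma, adjusted p = 0.28) and without prep 3 (0.069). The principal alpha subunits of transmitter release did not pass. *goa-1* had log2 ratios of -1.13, -0.52 and -0.22, with a mean of -0.63 ± 0.46 (limma, adjusted p = 0.094) that became -0.37 without prep 1. *egl-30* had 0.31, 1.00 and -0.15, with a mean of 0.39 ± 0.58 (limma, adjusted p = 0.34) that became 0.08 without prep 2 and 0.66 without prep 3.

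Of the 4 beta and gamma subunit genes, limma called 0 in either direction (1 lower and 0 higher at an unadjusted p under 0.05). *gpb-2*, the beta subunit that pairs with EGL-10 and EAT-16, had -0.77, 0.10 and 0.11, with a mean of -0.18 ± 0.50 (SD, n = 3) that became 0.11 without prep 1. *gpb-1*, the general beta subunit, had a mean of 0.41 ± 0.17. *gpc-2* had one of -0.66 ± 0.32 (limma, adjusted p = 0.068), and *gpc-1*, the gamma subunit of sensory neurons, one of -0.06 ± 0.48, which turned to 0.028 under centring with scaling and to 0.20 without prep 1.

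Among 4 other regulators measured, *gpr-2*, which encodes an activator of G alpha in spindle positioning, was higher and 0 were lower (limma; 1 lower at an unadjusted p under 0.05). Its log2 ratios were 0.76, 1.37 and 0.70, or 1.92-fold higher on average (limma, adjusted p = 0.011), and the call was lost without prep 2 (0.13). It is uncertain, because *gpr-1* is a close copy and was annotated only on a feature shared by several genes.

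Downstream, 2 of 10 effector genes were lower and 0 higher (limma; 1 higher at an unadjusted p under 0.05), with a median of -0.32. *unc-13*, which primes synaptic vesicles for release, was 2.36-fold lower (log2 ratio -1.24 ± 0.26, SD, n = 3). *pkc-1*, a protein kinase C of neurosecretion, had a mean of -0.73 ± 0.24 (limma, adjusted p = 0.038), which passed neither without any 1 prep (0.062 to 0.21) nor under median centring (0.056).

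Upstream, 4 of 21 receptor genes were lower and 0 higher (limma; 0 higher at an unadjusted p under 0.05), with a median of -0.28. *egl-6*, a neuropeptide receptor gene of the egg-laying motor neurons, was 2.28-fold lower (-1.19 ± 0.40) and the muscarinic receptor gene *gar-3* 2.14-fold (-1.10 ± 0.29). Also lower, and picked out once the values had been seen, were the dopamine receptor gene *dop-2* (-0.84 ± 0.39) and the muscarinic receptor gene *gar-2* (-0.82 ± 0.66). Without prep 1 both calls were lost (limma, adjusted p = 0.20 and 0.39), with a mean of -0.45 for *gar-2*, and that of *gar-2* was also lost under median centring (0.083).

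**Figure D3:**
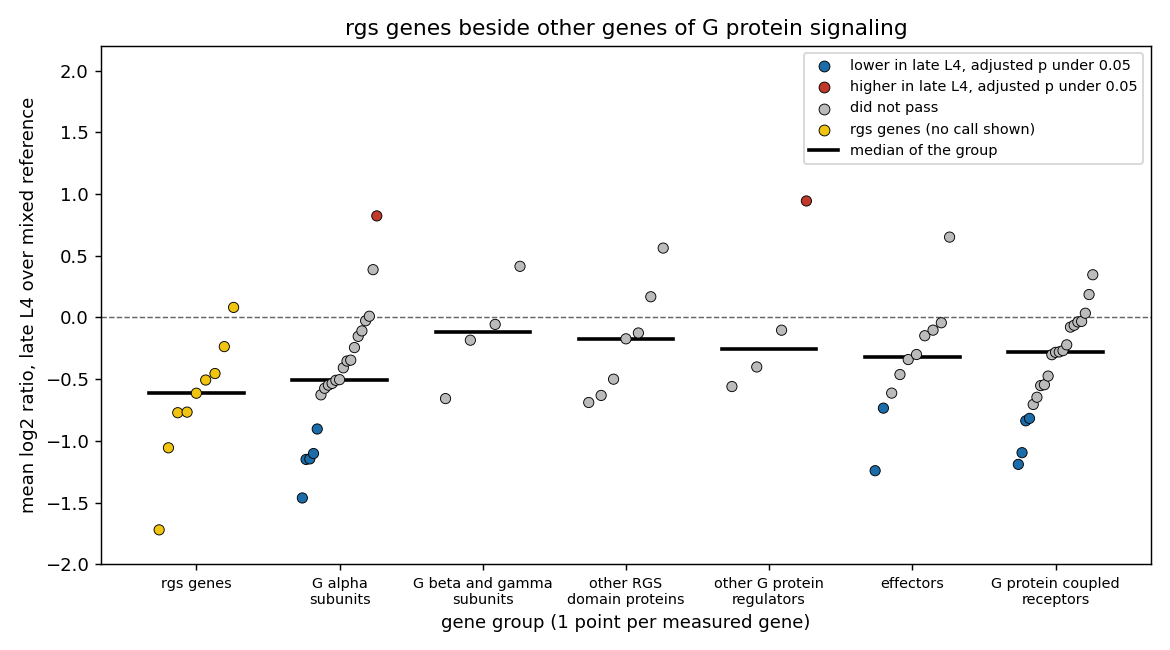
Mean log2 ratio of late L4 over reference (y axis) of each measured gene, 1 point per gene, in the rgs family and 6 other groups of G protein signaling genes, with the group median as a bar and, for those other groups, the calls of limma at an adjusted p under 0.05 as colours. The medians run from -0.61 for the rgs genes and -0.50 for the alpha subunits to -0.12 for the beta and gamma subunits.

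Over all 67 of these other pathway genes measured, 11 were lower and 2 higher, which is 16.4% and 2.99% of them beside 10.8% and 12.0% of all genes. All genes include unnamed features. Among named genes alone, 14.4% on the X and 11.6% on autosomes were lower, and the share higher was not counted. The median log2 ratio was -0.61 for the 9 rgs genes, -0.34 for these pathway genes and -0.03 for all genes. The difference between the rgs genes and the rest of the pathway was not tested.

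Of 13 neuronal marker genes measured, 6 were lower, 0 higher (limma; 0 higher at an unadjusted p under 0.05) and 7 did not pass, and their median was -0.54, with -0.80, -0.45 and -0.59 on preps 1, 2 and 3. *ida-1*, of dense core vesicles, was 3.55-fold lower (-1.83 ± 0.21, SD, n = 3) and *rab-3*, of synaptic vesicles, 2.32-fold (-1.21 ± 0.16). The mean was below 0 for 10 of the 13 markers, and the others were above 0, up to 0.16. The count of lower markers was 3 without prep 1 and 3 without prep 3. In whole-animal RNA, fewer cells of a type relative to the rest of the body and less RNA per cell cannot be told apart, and the part of neuronal content in the rgs ratios was not tested.

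The named genes most like the ends of the rgs order were found by the Euclidean distance over the log2 ratios of the 3 arrays, among 15111 other named genes. Nearest to *rgs-9* were F18E9.3, C03G6.17 and *ttr-51*, a transthyretin-related gene, at distances of 0.10, 0.11 and 0.12 log2 units. Nearest to *rgs-2* were F44D12.2, the discoidin domain receptor gene *ddr-1* and *rlbp-1*, at 0.04, 0.05 and 0.07. The distance describes these 3 arrays only.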

How the data were processed

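The authors deposited 1 log2 ratio per feature and array for 20000 features on 3 arrays; 2 to the power of every value was a multiple of 0.001 (within 0.05 of a step), which fixes base 2. The sources used here do not state the dyes, the kind of probe, or how the values were background-corrected and normalized. The ratios were used as deposited, with no filter on dim spots. Genes came from the platform annotation (15655 features with 1 symbol, 198 with several, 4147 without one), with symbols updated by Entrez ID through the RefSeq table of assembly WBcel235 (15569 matched); no array build is named, so no coordinates are printed. Features of one gene were averaged within each array, over the 19736 features with 3 values, leaving 19292 genes, unnamed features included. Mean ratios were tested against 0, two-sided, with lmFit and eBayes (limma 3.58.1, R 4.3.3), with 2 residual and 12.8 prior degrees of freedom; the reference's own spread is left out, and the number of arrays limits precision. A fold is 2 raised to the mean log2 ratio. The code was tested on simulated data. The members and lists were chosen with earlier results of these data known. Named genes were all members, *goa-1*, *egl-30*, *gpa-16* (not analysed here), *gpb-1*, *gpb-2*, *gpc-1*, *gpc-2*, *egl-10* and *eat-16*. Added to these were the 2 called genes of largest absolute mean per list, though not every such marker gene is printed. *gpa-2*, *gpa-3*, *gpa-4*, *gpa-12*, *dop-2* and *gar-2* were picked once their values had been seen. Genomic neighbours and the genes nearest by distance were named besides.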

Additional observations from a re-analysis of the deposited data

How the results depend on the processing

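No paired analysis was possible because all 3 arrays belong to 1 group. The alternatives were median centring, centring with scaling, values on at least 2 arrays, features not averaged, robust eBayes, no moderation of the variance, an adjusted p under 0.01 and leaving out each prep; all were planned. With fewer arrays fitted, leaving out 1 prep gave 1 to 3 rgs members lower, 7 to 10 lower and 0 to 2 higher pathway genes, 1337 to 1776 lower genes in all, and 3 to 4 lower neuronal markers. At an adjusted p under 0.01, a stricter threshold, 2 members, 7 lower and 0 higher pathway genes and 1217 lower genes were called. Without moderation, where 2 degrees of freedom per gene remain, limma called 0 genes in every count, while 2340 genes were lower and 1874 higher at an unadjusted p under 0.05. Median centring left 4 members and 1703 genes in all lower, and centring with scaling left 3 members and 1661 genes. Under each of these centrings, 8 pathway genes were lower and 3 higher, and 5 neuronal markers were lower. Signs turned for *gpc-1* (0.028 under centring with scaling; -0.27 to 0.20 leaving out 1 prep), *gpb-2* (-0.33 to 0.11), *egl-10* (-0.60 to 0.62) and the member *rgs-2* (-0.036 to 0.19). The cause was not tested. What dim signals limit was not tested, since no intensities were analysed here.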
